A study of Mus musculus and blank sample with 91 samples.

Results

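The mice that received Complete Freund's Adjuvant alone (CFA mice) contributed 29 of the 88 fecal samples with counts in this series, and each later sample was set against the sample taken from the same mouse at -2 dpi (days relative to immunization). The samples were chosen by their immunization label, CFA, and their day, -2, 8, 14, 19 or 29, and were paired by the mouse number in the labels. There were 6 mice, numbered 543 to 548, at -2, 8, 14 and 19 dpi, and 5 at 29 dpi, because the sample of mouse 548 at that day had a total of 0 counts and was left out. All were female C57BL/6 mice. The adjuvant is an emulsion of oil with killed mycobacteria, which by itself provokes strong inflammation at the site of injection. It is the vehicle in which other mice of the series received a myelin peptide to induce experimental autoimmune encephalomyelitis (EAE), and the peptide and pertussis toxin are named in the labels for the EAE mice only. Untreated (naïve) mice, 6 at each of the same 5 days and 30 samples in all, gave the background. Mice were housed 2 to 3 per cage and treatment was assigned by cage. Which mice shared a cage is not given in the sources used here, so mice are not fully independent samples, and p-values measure the spread between mice of a few cages.

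Feces of laboratory mice hold mostly strict anaerobes. Lactobacillus ferments sugars to lactic acid, Lachnospiraceae and Ruminococcaceae are spore-forming Clostridia that break down plant fiber and include many butyrate producers, and Prevotella and its relatives degrade polysaccharides. Turicibacter, Romboutsia and Clostridium sensu stricto are Gram-positive genera that colonize the small intestine of rodents as well as the large intestine. Reads of the 16S rRNA gene give each taxon's share of the counts of a sample and not its amount, so that a larger share of 1 taxon lowers the shares of others.

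Samples of CFA mice held 31179 to 94146 counts and those of naïve mice 33356 to 102437. A floor of 3 counts corresponded to 0.00319% to 0.00962% of a CFA sample, which covers counting error only. Values that low were rare, since 29 of the 866 genus values above 0 in CFA mice (3.35%) were under 0.1% of counts. CFA mice had counts in 20 of the 26 families and 64 of the 73 genera of the table. Their clinical score was 0 throughout, and they weighed 18.3 g on average at 8 dpi (SD 0.426, n = 6), and 19.3 g by 29 dpi (SD 1.2). Library numbers followed the days, so within CFA mice the day and the position among the libraries cannot be told apart; naïve mice were sampled over the same days. A taxon was called where edgeR's quasi-likelihood test, with the mouse as a block, gave a Benjamini-Hochberg adjusted p under 0.05. The comparisons with -2 dpi share their baseline samples, so 19 dpi was also compared with the mean of 8 and 14 dpi, and 29 with 19 dpi.

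Of 55 genera tested, 3, 3, 2 and 1 were called in the order of the days (5.45%, 5.45%, 3.64% and 1.82%), and all of these calls were losses. The genera were Turicibacter, Clostridium_sensu_stricto_1 and Romboutsia. Of 16 families tested, none was called at 8, 14 or 19 dpi (0.0% at each) and Lactobacillaceae was called at 29 dpi (6.25%). A single edgeR test of any change over the days called 0 families (0.0%) and 3 genera (5.45%). At an unadjusted p under 0.05 edgeR gave 3, 4, 2 and 3 families in the order of the days. DESeq2 called 5, 4, 3 and 5 families, and limma on centred log ratios called 4, 4, 2 and 2. Of genera, DESeq2 called 16, 11, 16 and 11, and limma on centred log ratios called 4, 4, 3 and 2. The latter included Eubacterium at each day, whose mean share was above that at -2 dpi.

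Turicibacter, a spore-forming genus of Erysipelotrichaceae, disappeared from the counts of every CFA mouse by 8 dpi and came back. At -2 dpi it held 4.53% to 17.3% of counts (median 12.4%, mean 11.4% ± 5.57, SD, n = 6). At 8 dpi it was at 0 in 6 of 6 mice, 0 of 385507 counts, which makes the mean share at least 2210-fold lower when a floor of 3 counts per sample is used. This floor covers counting error only, and whether variants at low shares were lost when ASVs were inferred was not tested, for this bound and for those of other genera. Naïve mice at 8 dpi spanned 4.14% to 40.1%, median 9.17%, so that every naïve mouse lay above every CFA mouse. At 14 dpi mice 543, 544 and 548 had 1.53%, 3.30% and 0.247%, and the other 3 were still at 0. At 19 dpi it was at 0 in mouse 546 and at 2.94% to 26.4% in the other 5 mice, among them 3 mice above their own -2 dpi level. At 29 dpi the 5 mice had 35.4%, 48.6%, 37.4%, 31.0% and 15.8%, each above its own -2 dpi value, while naïve mice spanned 0 to 35.2%, median 1.68%.

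The fall of Turicibacter was called at 8 dpi (edgeR adjusted p = 1.96e-22) and at 14 dpi (log2 fold change -5.28, SE 1.10, adjusted p = 5.26e-05), and the rise from the mean of 8 and 14 dpi to 19 dpi was called as well (adjusted p = 5.21e-25). The p-values of edgeR for 8 dpi and for this rise rest on samples at 0 and on the spread fitted to them. An exact sign-flip test of 6 mice cannot go below 0.031. The call at 14 dpi was lost without any 1 of mice 543, 545 and 547 (log2 fold changes -6.08, -4.82 and -4.89), without the block (-4.15) and when only genera with counts in at least 6 samples entered the fit (-5.29). The fall at 8 dpi differed from the change in naïve mice (adjusted p = 3.34e-12, test of treatment by day), the only such call among 61 genera at that day (1.64%). At 29 dpi the level was not called against -2 dpi (log2 fold change 1.35, SE 0.94, adjusted p = 0.887) or against 19 dpi (log2 fold change 1.52, SE 0.97, adjusted p = 0.833). Erysipelotrichaceae, the family of Turicibacter, held a mean of 11.6% at -2 dpi and 0.441% at 8 dpi but was not called by edgeR. Its adjusted p was 0.150 at 8 dpi, 0.198 at 14 dpi and 0.0743 in the rise to 19 dpi. Against naïve mice at 8 dpi it was 0.253. DESeq2 and limma on centred log ratios called the family at 8 and 14 dpi. As a share of counts, Erysipelotrichaceae gained 20.8 percentage points ± 10.4 (SD, n = 5) by 29 dpi and was higher in 5 of 5 mice, with an exact sign-flip p of 0.063, the smallest that 5 mice allow (adjusted p = 0.312). Naïve mice lost 8.67 ± 16.4 points over the same time, and the exact permutation test of the difference of 29.5 points gave p = 0.0130 (adjusted p = 0.130). A single sequence variant, named Turicibacter sanguinis, carried the genus before the loss and after it. Of the Erysipelotrichaceae counts at 29 dpi, at least 99.1% in each mouse lay in variants that the same mouse had held at -2 dpi.

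**Figure D1:**
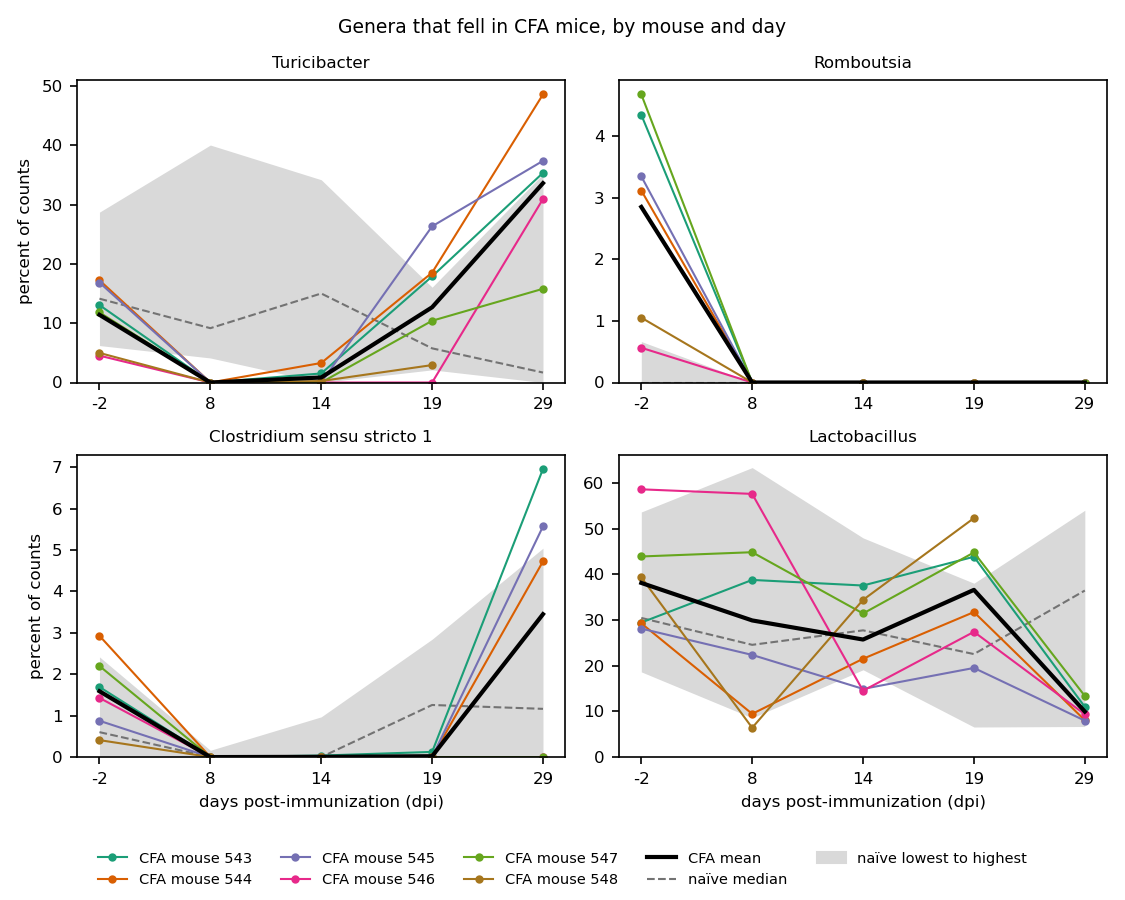
Percent of counts (y axis) against days post-immunization (x axis) for 4 genera, with colored points and lines for each CFA mouse, a black line for the CFA mean, and gray shading and a dashed line for the range and median of 6 naïve mice. Turicibacter was at 0 in 6 of 6 CFA mice at 8 dpi and at 15.8% to 48.6% at 29 dpi, Romboutsia stayed at 0 from 8 dpi on, and Lactobacillus lay at 7.99% to 13.4% at 29 dpi.

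Romboutsia, the only genus of Peptostreptococcaceae with counts in CFA mice, was lost and was not seen again. At -2 dpi the CFA mice had 4.35%, 3.12%, 3.35%, 0.565%, 4.68% and 1.05% of counts in mice 543 to 548, all in 1 variant named Romboutsia timonensis. In all 23 later samples it was at 0, with 0 of 1486471 counts. The mean share was at least 552-fold, 642-fold, 463-fold and 701-fold lower in the order of the days. Only 1 naïve mouse held the genus at -2 dpi, at 0.666%, and none did later, so the naïve mice had little to lose. The genus was called at all 4 days (edgeR adjusted p = 0.000183, 0.000133, 0.000490 and 0.00256), though the call at 29 dpi was lost without any 1 of mice 543, 545 and 547 and when genera with counts in fewer than 6 samples were left out. The family holds the same counts and was not called by edgeR, with adjusted p of 0.150, 0.198, 0.294 and 0.189 in the order of the days. Its unadjusted p in this test was 0.0187, 0.0179, 0.0203 and 0.0236. The spread between samples is estimated separately over families and over genera, so edgeR's call depended on the rank fitted. DESeq2 and limma on centred log ratios called the family at each day. Its share fell by 2.74 percentage points more than in naïve mice at 14 and 19 dpi (exact permutation test, adjusted p = 0.0433 at both days). At 8 and 29 dpi the differences of -2.74 and -3.10 points had an adjusted p of 0.0866. The later shares were 0 in both groups, so at every day this test compared only the shares at -2 dpi. The call at 19 dpi was lost without any 1 of mice 543, 544, 545 and 547, with differences of -2.44, -2.69, -2.64 and -2.38 points.

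Clostridium_sensu_stricto_1, the genus of the type species of Clostridium, was lost for longer than Turicibacter and reappeared at 29 dpi in some mice. At -2 dpi it held 0.410% to 2.93% of counts (median 1.56%), and at 8 dpi it was at 0 in 6 of 6 mice, at least 308-fold lower. At 14 and 19 dpi it was seen only in mouse 543, at 0.0364% and 0.125%. At 29 dpi mice 543, 544 and 545 had 6.96%, 4.72% and 5.57%, all above their own -2 dpi level, and mice 546 and 547 were at 0. The losses were called at 8, 14 and 19 dpi (edgeR adjusted p = 5.05e-06, 5.26e-05 and 0.000490), those at 14 and 19 dpi only with the mouse as a block (log2 fold changes without it -8.29 and -5.75). The rise from 19 to 29 dpi was called (adjusted p = 0.0263), but not without any 1 of mice 543, 544 and 545, without the block, on centred log ratios, with all treatments in the fit or with genera in at least 6 samples, and 29 dpi did not differ from -2 dpi by the test (adjusted p = 1.0). In naïve mice the genus was also scarce at 8 dpi, from 0 to 0.164%, and was back at a median of 1.26% by 19 dpi. The change differed from that in naïve mice at 19 dpi (adjusted p = 0.0119, lost without the block), where 3 genera of 61 were called (4.92%), and at 8 and 14 dpi the adjusted p was 0.171 and 0.273. The share of Clostridiaceae as a whole was 1.51 ± 0.936 points below -2 dpi in CFA mice at 19 dpi and 0.820 ± 1.07 points above it in naïve mice. This difference of -2.33 points passed the exact permutation test (adjusted p = 0.0433), a call that was lost without any 1 of mice 543 to 547, with differences of -2.46 to -2.05 points.

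Lactobacillus, which made up all counts of Lactobacillaceae, was at its lowest at the last day. It held 28.1% to 58.7% of counts at -2 dpi (median 34.4%), 6.42% to 57.7% at 8 dpi (median 30.6%), 14.5% to 37.6% at 14 dpi (median 26.5%) and 19.5% to 52.3% at 19 dpi (median 37.8%). At 29 dpi mice 543 to 547 had 11%, 8.08%, 7.99%, 9.37% and 13.4%, all below every CFA sample of -2 and 19 dpi. Naïve mice at 29 dpi lay between 6.70% and 54.1% (median 36.5%) and overlapped the CFA mice. Lactobacillaceae was called at 29 dpi against -2 dpi (log2 fold change -2.12, SE 0.59, edgeR adjusted p = 0.0268) and against 19 dpi (log2 fold change -2.01, SE 0.59, adjusted p = 0.0386). It was the family behind both calls, 6.25% of those tested in each comparison. In edgeR's test of any change over the days its adjusted p was 0.0902, above the threshold. The first call was lost without any 1 of mice 543 to 547 (log2 fold changes -2.21, -2.23, -2.23, -1.43 and -2.24) and on centred log ratios (-1.34), and with all treatments in the fit, and the genus, with the same counts, had an adjusted p of 0.208. The second was lost without any 1 of mice 543, 544, 545 and 547, on centred log ratios and with all treatments in the fit. The share was lower in 5 of 5 mice by a mean of 27.9 ± 12.8 points, and the difference from the naïve change was -25.7 points (exact permutation p = 0.0736, adjusted p = 0.346). In mouse 544 and mouse 548 the share was already down to 9.47% and 6.42% at 8 dpi, and in both it was higher again at 14 dpi. One variant, named Lactobacillus johnsonii, held nearly all of these counts, with means of 38.1% at -2 dpi and 9.91% at 29 dpi.

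Lachnospiraceae had its largest shares at 14 dpi, but no call by edgeR. After edgeR's scaling between samples, its log2 fold change was 0.13 (SE 0.30) at 8 dpi and 0.30 (SE 0.30) at 14 dpi. CFA mice had 13.3% to 30.5% at -2 dpi (median 23.2%), 15.8% to 54.0% at 8 dpi (median 32.3%), 31.9% to 68.1% at 14 dpi (median 34.9%), 11.7% to 30.8% at 19 dpi (median 18.7%) and 13.3% to 33.3% at 29 dpi (median 17.8%). The samples of 14 dpi lay above all samples of the same mice at -2 and 19 dpi, and above all naïve samples of 14 dpi, which ended at 23.6%. By median the CFA mice also stood higher at -2 dpi, with 23.2% against 13.4% in naïve mice, which spanned 9.13% to 41.8%. Mice 545 and 546 stood highest at 14 dpi, with 68.1% and 59.8%. The share was higher than at -2 dpi in 6 of 6 mice at 8 dpi (mean 11.4 points ± 10.5) and in 6 of 6 at 14 dpi (22.1 ± 18.7), each with an exact sign-flip p of 0.031, the smallest that 6 mice allow. The adjusted p over the 20 families was 0.156 and 0.125, above the threshold, which no family's share passed at any day (0.0%). At 29 dpi none could pass, since the sign-flip p of 5 mice cannot go below 0.063. With 6 mice a family could pass only if many others also reached the smallest p. Against the change in naïve mice the Lachnospiraceae difference at 14 dpi was 22.7 points (exact permutation p = 0.0541, adjusted p = 0.180).

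All 23 genera that the taxonomy places in Lachnospiraceae had counts in CFA mice, and of the 19 tested none was called at any day against -2 dpi. Over all 55 genera 3, 3, 2 and 1 were called in the order of the days. Positive log2 fold changes numbered 14 of 19 at 8 dpi (median 0.48, against 0.42 over all 55 genera), 16 at 14 dpi (median 1.00 against 0.62), 11 at 19 dpi (0.06 against -0.11) and 8 at 29 dpi (-0.15 against -0.23). Roseburia, a flagellated butyrate producer, had a mean of 4.48% at -2 dpi and 9.89% at 14 dpi, with 21.2% in mouse 545 and 15.8% in mouse 546 and 5.09% to 6.67% in the other 4. Lachnospiraceae_NK4A136-Clostridium XlVa had means of 4.01%, 6.88%, 9.61%, 4.19% and 3.85% in the order of the days. Lachnospiraceae_NA, the counts with no genus name, went from 0.437% to 2.67% by 14 dpi and was higher in 6 of 6 mice. The means of Coprococcus/Eubacterium_F, Stomatobaculum, Dorea, Lachnospiraceae-Clostridium XlVa, Lachnospiraceae_NK4A136/Hungatella, Hungatella, Lachnospira and Acetatifactor were also largest at 14 dpi, between 1.07% and 2.93%. Coprococcus was in mice 544, 545 and 548 at -2 dpi, at 1.76%, 1.41% and 3.58%, and at 29 dpi, where mouse 548 had no counts, in mouse 546 alone at 0.853%. Lachnospiraceae_NK4A136/COE1 was lower at 29 dpi in 4 of 5 mice, by a mean of 0.784 ± 0.483 points, and naïve mice lost 0.619 ± 0.391 points over the same time. Some of these names share sequences: between the primers, all Hungatella and Stomatobaculum counts of CFA mice lay in variants that also carry an NK4A136 name, so those genera cannot be read as separate organisms.

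**Figure D2:**
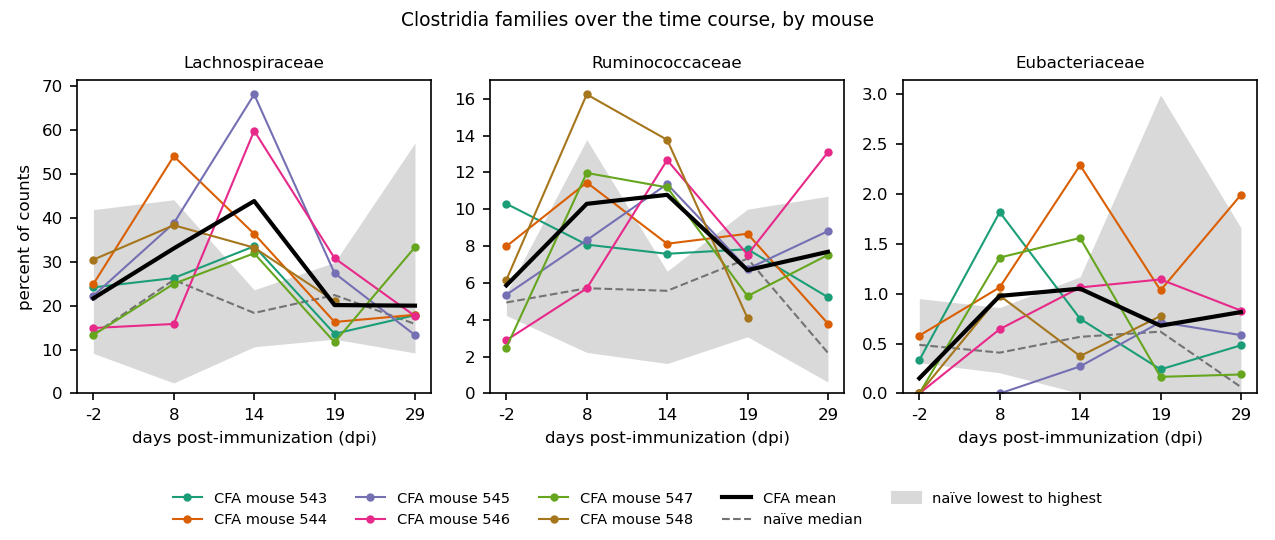
Percent of counts (y axis) against days post-immunization (x axis) for 3 families of Clostridia, with colored points and lines for each CFA mouse, a black line for the CFA mean, and gray shading and a dashed line for the range and median of 6 naïve mice. At 14 dpi all 6 CFA mice lay above the naïve range in Lachnospiraceae (31.9% to 68.1%) and Ruminococcaceae (7.59% to 13.8%). At -2 dpi the CFA medians of these families were 23.2% and 5.76%, against naïve medians of 13.4% and 4.94%.

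Acetatifactor, a genus of Lachnospiraceae first isolated from a mouse, was at 0 in 6 of 6 CFA mice at 19 dpi after 4 mice had held 0.629% to 3.71% at 14 dpi. The mean change from -2 to 19 dpi was -0.386 points ± 0.635 (SD). The genus was lower than at -2 dpi in 2 of 6 mice and at 0 at both days in the others. Its fall from the mean of 8 and 14 dpi was called (edgeR adjusted p = 0.0153; 3.64% of genera were called in this comparison), but it was not without any 1 of the 6 mice, without the block, on centred log ratios or with genera in at least 6 samples. All 6 naïve mice had the genus at 19 dpi, from 0.291% to 3.34%. They had gained 1.21 points ± 1.53 (SD) since -2 dpi, with 5 of 6 mice higher. The difference between the changes was called (edgeR adjusted p = 0.0181), though not on centred log ratios, and so includes this naïve gain. Lachnospiraceae_FCS020-Clostridium XlVa, named here after its values were seen, was at 0 in all 6 mice at 19 dpi and at 0.587%, 1.44%, 0, 0.454% and 0 at 29 dpi. This rise was called (adjusted p = 0.0263; 3.64% of genera), but again not without any 1 mouse, without the block, on centred log ratios, with all treatments in the fit or with genera in at least 6 samples. Of this name's counts in CFA mice, 97.9% lay in variants that also carry the name Lachnospiraceae-Clostridium XlVa, which was present at 19 dpi at up to 2.07%, so the rise cannot be read as that of a separate organism.

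Ruminococcaceae also had its largest median share at 14 dpi, but no call by edgeR. Its edgeR log2 fold changes against -2 dpi were 0.44, 0.30, 0.31 and 0.33 in the order of the days (SE 0.46 to 0.49). CFA mice had 2.49% to 10.3% at -2 dpi (median 5.76%), 5.71% to 16.2% at 8 dpi (median 9.89%), 7.59% to 13.8% at 14 dpi (median 11.3%), 4.09% to 8.67% at 19 dpi (median 7.15%) and 3.79% to 13.1% at 29 dpi (median 7.53%). Naïve mice at 14 dpi had 1.63% to 6.64% and did not overlap the CFA mice of that day. Their median at -2 dpi was 4.94%, against 5.76% in CFA mice. The gain over -2 dpi was 4.43 points ± 4.63 at 8 dpi, in 5 of 6 mice (exact sign-flip p = 0.063, adjusted p = 0.179), and 4.92 ± 5.05 at 14 dpi, in 5 of 6 mice (exact sign-flip p = 0.0938, adjusted p = 0.312). Of its 19 genera, 18 had counts and 17 were tested. None of these was called at any day, against 3, 3, 2 and 1 of all 55 genera. Ruminococcaceae_UCG-014 had a mean of 1.44% at -2 dpi and 3.86% at 8 dpi and was higher in 6 of 6 mice. Ruminococcus, which holds species that degrade cellulose and resistant starch, had 0.725% and 1.95% and was higher in 5 of 6, and Ruminococcaceae_UCG-013 had 0.417% and 1.01%. Naïve mice also gained in these 3 genera by 8 dpi. Ruminococcus gained 0.855 points in them against 1.23 in CFA mice, and at 14 dpi 1.26 against 1.13. For UCG-014 and UCG-013 the naïve gains at 8 dpi were 0.851 and 0.207 points, against 2.42 and 0.596 in CFA mice. Flavonifractor and Flintibacter, both butyrate producers, had their largest means at 14 dpi, 1.93% and 1.03%, and Flintibacter then dropped to a mean of 0.117% at 19 dpi with 3 mice at 0.

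Eubacteriaceae, here Eubacterium alone and within it a variant named Eubacterium coprostanoligenes, a reducer of cholesterol, was present in 2 of 6 mice at -2 dpi, at 0.334% and 0.581%. It was present in 5 of 6 mice at 8 dpi, from 0.645% to 1.82%, and in every mouse from 14 dpi on, from 0.167% to 2.29%. The share was above the own baseline in 5 of 6 mice at 8 dpi, 6 of 6 at 14 dpi, 5 of 6 at 19 dpi and 5 of 5 at 29 dpi. At 14 dpi the mean gain of 0.899 points exceeded that of naïve mice by 0.881 points (exact permutation test, adjusted p = 0.0433). The differences were 0.903, 0.184 and 0.867 points at 8, 19 and 29 dpi, with adjusted p of 0.108, 1.0 and 0.346 in the same test. At 14 dpi 2 of 20 families passed it (10.0%), the other being Peptostreptococcaceae. The naïve mice had the family at -2 dpi in 6 of 6 mice, from 0.309% to 0.951%, so the CFA mice started lower. Against -2 dpi the family was not called by edgeR (adjusted p = 0.219, 0.241, 0.327 and 0.290), and limma on centred log ratios called it at each day.

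A list of 9 genera taken as butyrate producers by name held Roseburia, Anaerostipes, Flavonifractor, Coprococcus, Coprococcus/Eubacterium_F, Eubacterium, Butyricicoccus and both Intestinimonas groups. It leaves out Flintibacter and takes in Eubacterium, here with a variant named Eubacterium coprostanoligenes. The listed genera summed to a mean of 11.8% ± 3.12 at -2 dpi and to 17.2% ± 6.34, 20.3% ± 6.54, 10.3% ± 2.54 and 10.3% ± 2.16 (SD) over the later days. At 14 dpi the sums of 15.0% to 31.9% lay above all naïve sums of that day (0.671% to 6.87%), but the CFA mice also stood higher at -2 dpi, with a median of 12.7% against 4.43%. None of the 9 genera was called at any day, against 3, 3, 2 and 1 of all 55 genera in the order of the days. At 14 dpi 6 of the 9 had a positive log2 fold change (median 1.45, against 0.62 over all genera), and at 29 dpi 3 of the 9 did (median -0.45 against -0.23). Families of Clostridia together, 10 of the 11 listed having counts, went from a mean of 33.9% at -2 dpi to 59.5% at 14 dpi and 28.7% at 19 dpi, with 0 of 10 called at any day. Of all 16 families tested, 0 were called at 8, 14 and 19 dpi and 1 (6.25%) at 29 dpi.

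**Figure D3:**
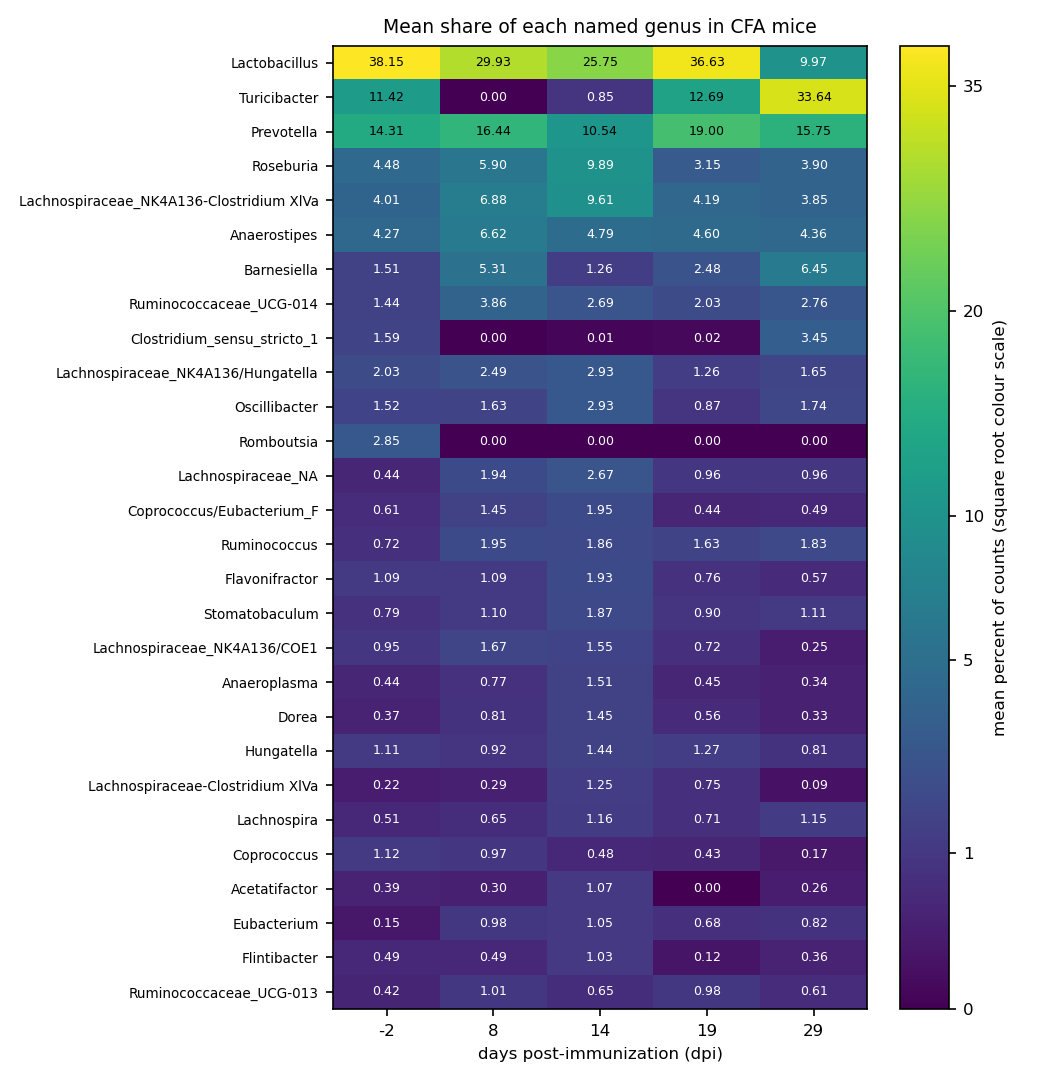
Mean percent of counts (cell values, colors on a square root scale) of the 28 genera that reached a mean of at least 1% at some day, by days post-immunization (x axis), over 6 CFA mice per day and 5 at 29 dpi. Turicibacter went from 11.4% to 0 and then to 33.6%, Lactobacillus was at 9.97% at 29 dpi, and Roseburia peaked at 9.89% at 14 dpi.

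Prevotellaceae and Porphyromonadaceae, the Bacteroidales families of CFA mice, could not be told apart by sequence. Of the Barnesiella counts, the sole genus named under Porphyromonadaceae, all 62399 lay in 1 sequence between the primers, and 97.7% of Prevotella counts lay in that same sequence. The ASVs differed in the primer bases that the deposited sequences still carry. The shares by name were therefore read as a sum. The sum was 12.5% to 20.5% at -2 dpi (median 14.9%), 14.6% to 33.9% at 8 dpi (median 19.7%), 15.1% to 28.4% at 19 dpi (median 20.7%) and 11.8% to 27.3% at 29 dpi (median 24.8%). At 14 dpi it was at 0 in mouse 545 and 5.40% in mouse 546, the mice with the largest Lachnospiraceae shares of that day, and 14.3% to 22.2% in the other 4. The summed share changed by 5.93 points ± 8.49 at 8 dpi (5 of 6 mice higher, exact sign-flip p = 0.156), -4.02 ± 10.3 at 14 dpi (3 of 6, exact p = 0.438), 5.65 ± 5.73 at 19 dpi (5 of 6, exact p = 0.0938) and 6.04 ± 4.49 at 29 dpi (4 of 5, exact p = 0.125). By name, Barnesiella alone spread from 0 to 11.3% at 29 dpi and was at 0 in 2 of 5 mice. Summing was chosen after the data had been seen.

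Oscillospiraceae, with Oscillibacter as its genus, was not called as a family while its variants came and went. The family held a mean of 1.52% ± 0.748 at -2 dpi and of 1.63% ± 0.951, 2.93% ± 1.48, 0.875% ± 0.966 and 1.74% ± 0.842 (SD) over the later days, and was not called. Within it, a first variant of 404 bases was present in 5 of 6 mice at -2 dpi (0.633% to 1.34%), 0 of 6 at 8 dpi, 3 of 6 at 14 dpi, 0 of 6 at 19 dpi and 4 of 5 at 29 dpi. A second variant of the same length, differing from it at 2 positions, was present in 0 of 6 mice at -2 dpi, 5 of 6 at 8 dpi (0.658% to 1.95%), 4 of 6 at 14 dpi, 1 of 6 at 19 dpi and 0 of 5 at 29 dpi. Both were called at 8 dpi among 104 variants tested (edgeR adjusted p = 0.0172 for the fall and 0.0212 for the rise), where 6 variants were called (5.77%). Naïve mice held the first variant at 8 dpi in 4 of 6 mice and the second in 1 of 6, and a test of the difference from naïve mice was not run for variants.

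**Figure D4:**
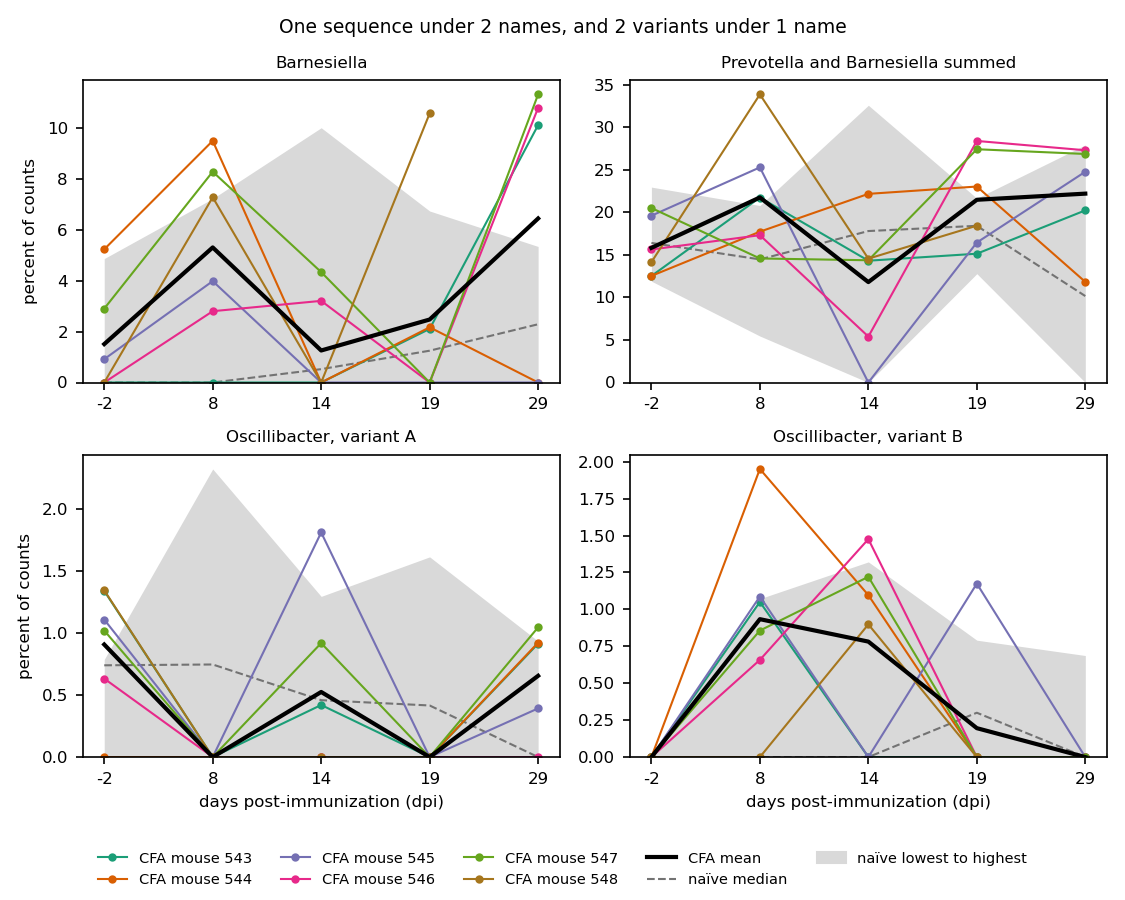
Percent of counts (y axis) against days post-immunization (x axis), with colored lines for each CFA mouse, a black line for the CFA mean, and gray shading and a dashed line for the range and median of 6 naïve mice. The upper panels show Barnesiella alone and summed with Prevotella, which has the same sequence between the primers, and the lower panels show the first (A) and second (B) variant of Oscillibacter, present in 0 of 6 and 5 of 6 CFA mice at 8 dpi.

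Other variants called at 8, 14, 19 or 29 dpi, named here after their values were seen, also went between absence and shares of the order of 1%. Shares of variants called were 4.81% at 14 dpi, 6.73% at 19 dpi and 1.92% at 29 dpi. A variant of Ruminococcaceae_UCG-014 was at 0 in 6 of 6 mice at -2 dpi, present in 5 of 6 at 8 dpi (up to 0.980%), and in 4 of 6 at both 14 and 19 dpi, with adjusted p of 0.0212, 0.0192 and 0.0347. Naïve mice had this variant in 1 of 6 mice at -2 dpi and 5 of 6 at 8 dpi. A variant named Ruminococcus champanellensis, a cellulose degrader, was in 1 of 6 mice at -2 dpi and 6 of 6 at 19 dpi (0.562% to 1.5%, adjusted p = 0.0347). Ruminococcus as a genus gained 0.902 points ± 0.630 in CFA mice by 19 dpi and 1.01 ± 1.63 (SD) in naïve mice. A variant named Flintibacter butyricus was in 5 of 6 mice at -2 dpi, 6 of 6 at 14 dpi and 0 of 6 at 19 dpi (adjusted p = 0.0347). A variant of Lachnospiraceae_NK4A136/Hungatella was absent at -2 dpi and in 5 of 6 mice at 19 dpi (adjusted p = 0.0347). A variant of Lachnospiraceae_NK4A136-Clostridium XlVa was in 3 of 6 mice at -2 dpi, 6 of 6 at 8 dpi and 0 of 5 at 29 dpi (adjusted p = 0.0485). In Ruminococcaceae the median share of a mouse's counts lying in its own -2 dpi variants was 43.2%, 49.3%, 46.0% and 32.4% over the days, in Lachnospiraceae 71.0%, 65.5%, 69.3% and 78.3%, and in Lactobacillaceae at least 99.8%.

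Anaeroplasmataceae, wall-less bacteria of the class Mollicutes, had means of 0.439%, 0.773%, 1.51%, 0.45% and 0.335% over the days and was not called. The family was in 3 of 6 mice at -2 dpi and 5 of 6 at 14 dpi, where mouse 547 had 3.78%. Anaerostipes, a butyrate producer, stayed between 1.07% and 9.84% in all 29 CFA samples and was at 0 in every naïve mouse at -2, 8 and 14 dpi. Later 2 naïve mice had it at 19 dpi, up to 0.872%, and 2 at 29 dpi, up to 1.13%. Its change differed between the groups at 19 dpi (edgeR adjusted p = 0.0403, lost on centred log ratios) and was not called at 29 dpi (adjusted p = 0.0656). Verrucomicrobiaceae, the mucin-degrading family of Akkermansia, was at 0 in all CFA samples and reached 12.8% in naïve mice at -2 dpi and 31.9% at 29 dpi. The CFA and naïve mice thus differed before immunization, and group and cage cannot be told apart.

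The community as a whole had its smallest mean distance to -2 dpi at 19 dpi, though mouse 546 was nearest at 8 dpi and mouse 548 at 14 dpi. The Bray-Curtis distance on genera to the own -2 dpi sample, 0 for equal shares and 1 for no shared genus, had means of 0.344 ± 0.125, 0.435 ± 0.190, 0.283 ± 0.0760 and 0.45 ± 0.0644 (SD) over the later days. It was smaller at 19 than at 14 dpi in 5 of 6 mice (mean difference -0.152, exact sign-flip p = 0.0938, adjusted p = 0.188), smaller than at 8 dpi in 5 of 6 (-0.0616, exact sign-flip p = 0.406, adjusted p = 0.562) and larger at 29 than at 19 dpi in 5 of 5 mice (mean difference 0.176, exact sign-flip p = 0.063, adjusted p = 0.188). Naïve mice had 0.416, 0.365, 0.383 and 0.460, and no difference between the groups passed the test at any of the 4 days (exact permutation test, adjusted p = 0.592, 0.592, 0.372 and 0.838). Distances of this size were therefore also present in mice that received nothing.

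Mean diversity by genera was largest at 14 dpi. The Shannon metric on genera was 2.23 ± 0.387 at -2 dpi and 2.67 ± 0.187 at 14 dpi, higher in 5 of 6 mice (exact sign-flip p = 0.063, adjusted p = 0.250), and 2.41, 2.06 and 2.26 at 8, 19 and 29 dpi. On ASVs as deposited, which split a sequence by its primer bases, the change was 0.197 at 14 dpi with 3 of 6 mice higher, and at 8 dpi it turned from 0.181 to -0.273. The number of genera with counts was 28.7 ± 6.5 at -2 dpi and 35.8 ± 5.42 at 14 dpi, higher in 4 of 6 mice (exact sign-flip p = 0.188, adjusted p = 0.750). In naïve mice the Shannon metric was 2.18 at -2 dpi and 2.20 at 14 dpi. Of a CFA mouse's counts, a mean of 81.1%, 70.5%, 85.5% and 86.6% over the days lay in variants the same mouse had at -2 dpi, and in naïve mice 79.4%, 79.2%, 75.2% and 73.7%. The largest difference, 12.9 points at 29 dpi, had an exact permutation p of 0.0455 and an adjusted p of 0.182.

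**Figure D5:**
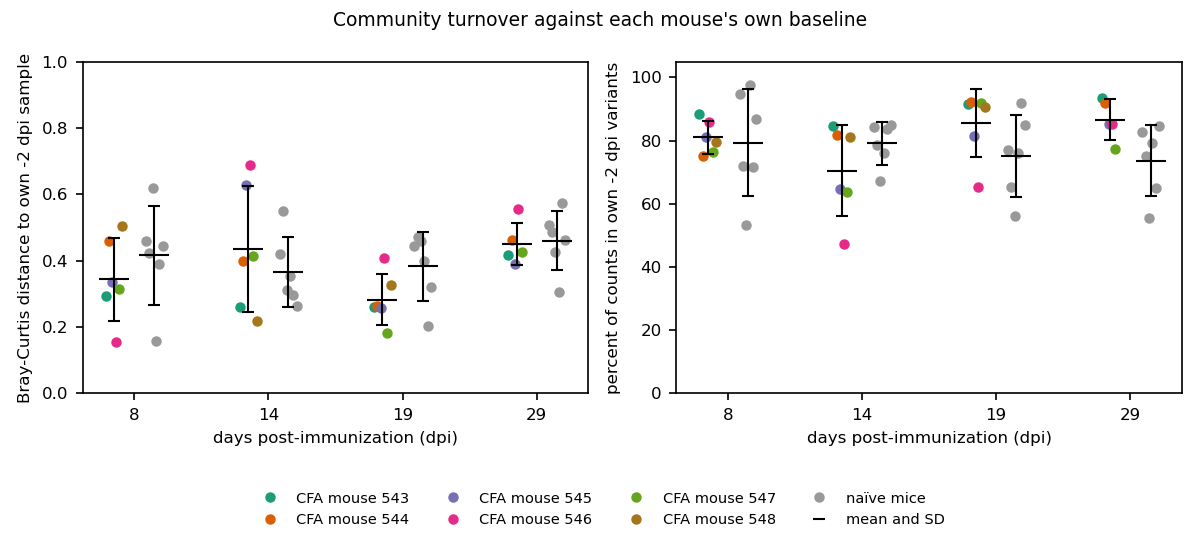
Bray-Curtis distance on genera to the own -2 dpi sample (left, y axis) and percent of counts in variants held by the same mouse at -2 dpi (right, y axis) against days post-immunization, with a point per mouse, CFA mice colored and naïve mice gray, and bars for the mean and SD of 6 mice (5 CFA mice at 29 dpi). CFA distances had means of 0.344, 0.435, 0.283 and 0.45, and CFA and naïve points overlapped at every day.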

How the data were processed

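The authors extracted DNA from feces, amplified regions V3 and V4 of the 16S rRNA gene and inferred amplicon sequence variants (ASVs) with DADA2 (version not given in the sources used here). The deposited table holds raw, unscaled counts for every ASV in every sample, with primer bases still in the sequences, and a second table gives taxonomic names that the authors curated by hand from several databases. The 2295 ASVs were summed to families, genera and 501 sequence variants, which are identical once both primers are removed; the 2274 ASVs with both primers allowed this. Shares are percent of the total counts of a library. Groups follow the labels, and mice were paired by number, since a number marks the same animal at every day. Taxa with counts in at least 3 CFA samples were tested with edgeR 4.0.16 in R 4.3.3 (mouse and day, TMMwsp factors from genus counts, threshold 0.05). Alternatives were DESeq2 1.42.0 with poscounts size factors, limma 3.58.1 on centred log ratios (pseudocount 0.5), no block, all groups, total counts, other filters and leaving out each mouse. Single shares, distances and diversity were compared with two-sided exact sign-flip or permutation tests (Python 3.11.15, scipy 1.17.1), and the edgeR fit at 8 dpi was tested on simulated variants. It recovered large known changes at a modest spread between samples but none at the median spread of these data, so a taxon that was not called may still have differed. Named are the 11 families and 28 genera with a mean of at least 1% of counts in CFA mice at some day, or called. The samples, lists and naming rule were chosen with earlier results of these data known. EAE mice entered only the alternative fit over all groups.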

Additional observations from a re-analysis of the deposited data

Results flagged for a closer look

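In 4 of 69 groups of CFA mice examined, 1 mouse stood apart from the rest, and chance alone sets a mouse apart in about 1 of 20 groups. Anaeroplasmataceae at 19 dpi reached 1.69% in mouse 546 (median 0.238%). Clostridiaceae at 8 dpi was at 0.715% in mouse 544 and at 0 in the other 5. Lachnospiraceae at 29 dpi was 33.3% in mouse 547 (median 17.8%). Porphyromonadaceae at 19 dpi was 10.6% in mouse 548 (median 1.05%), under a name whose sequence is shared with Prevotella.

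The change since -2 dpi differed between CFA and naïve mice for 4 genera by edgeR's test of treatment by day. The log2 differences were -15.65 for Turicibacter at 8 dpi, -18.67 for Acetatifactor, -8.66 for Anaerostipes and -13.32 for Clostridium_sensu_stricto_1 at 19 dpi. These values rest on groups at or near 0 and depend on the prior count, so they are not fold changes. As a share of counts, the change differed by exact permutation tests for Eubacteriaceae at 14 dpi (0.881 points), Peptostreptococcaceae at 14 and 19 dpi (-2.74 points at both) and Clostridiaceae at 19 dpi (-2.33 points). For Peptostreptococcaceae the later shares were 0 in both groups, so its test compared only the shares at -2 dpi.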

How the results depend on the processing

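Of 1149 alternatives to 149 results, 997 kept their side of the threshold or, as counts of calls, stayed near the main count. Another 65 lost and 4 gained significance, 83 counts moved and 0 results reversed. The other sign was seen in 43, none of them past the threshold on either side, and these are among the 997. Without the replicate block, that is without the pairing by mouse, 1, 1, 1 and 2 families were called at 8, 14, 19 and 29 dpi, 1, 1 and 2 genera at 14, 19 and 29 dpi, 2 and 4 variants at 14 and 29 dpi, 2 families over any day, 1 family and 1 genus in the return to 19 dpi, 0 genera from 19 to 29 dpi, and 2 genera against naïve mice at 29 dpi. DESeq2 called 5, 4, 3 and 5 families and 16, 11, 16 and 11 genera by day, 3 families over any day, 4 families and 15 genera in the return, and 2 families and 13 genera from 19 to 29 dpi. Centred log ratios gave 4, 4, 2 and 2 families by day, 2 genera at 29 dpi, 1 genus in the return, 0 families and 0 genera from 19 to 29 dpi, 2 families at each day against naïve mice, and 2, 1 and 5 genera against naïve mice at 8, 14 and 29 dpi. With all treatments in the fit, 2, 1 and 1 families were called at 8, 14 and 19 dpi and 1 genus at 14 and at 19 dpi, and, in fits added after the data had been seen, 1 family in the return and 0 families and 0 genera from 19 to 29 dpi. Total counts gave 1 family over any day, and genera with counts in at least 6 samples gave 0 calls at 29 dpi and, likewise added, 1 in the return and 0 from 19 to 29 dpi. ASVs as deposited gave 17, 18, 0 and 4 calls by day in place of 6, 5, 7 and 2, and a persistence difference of 19.3 points at 19 dpi (adjusted p = 0.0433). Leaving out each mouse in turn gave 0 to 1 families and 0 to 1 genera at 29 dpi, 2 to 4 genera at 14 dpi, 2 to 3 at 19 dpi, 0 to 1 families and 1 genus in the return, and 0 to 1 families and 0 to 1 genera from 19 to 29 dpi. The tests against naïve mice across genera were not rerun without single mice. Causes of these differences were not tested, except that fewer mice or genera enter some fits. With 5 or 6 mice the exact sign-flip tests could not go below 0.063 or 0.031, and genus shares above 0 but under 0.1% were seldom seen.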
